A study of Arabidopsis thaliana with 22 samples.

Results

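The genes described here are 44 Arabidopsis thaliana loci of the nuclear auxin response: 29 Aux/IAA genes and 15 AUXIN RESPONSE FACTOR (ARF) genes. They were chosen by family and locus identifier, not by a measured value though with earlier results of these data known, out of 27444 protein-coding genes on chromosomes 1 to 5. Histone H3 acetylation was mapped by chromatin immunoprecipitation and sequencing (ChIP-seq) in whole seedlings grown for 3 days in the dark, a stage at which ethylene shortens the hypocotyl and tightens the apical hook. Seedlings of ein2-5, a mutant of the ethylene signalling gene EIN2, and of wild-type Col-0 received ethylene at 10 ppm or air for 4 h. H3K14Ac and H3K23Ac (H3 acetylated at lysine 14 or lysine 23) were mapped in ein2-5 and in Col-0, and H3K9Ac in Col-0 alone. The comparisons ask where these marks lie on the auxin response genes, whether that differs with ethylene, and whether it differs without EIN2.

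Aux/IAA proteins are short-lived repressors that bind ARF transcription factors and recruit TOPLESS co-repressors to auxin-responsive promoters. Auxin brings Aux/IAA proteins and TIR1/AFB F-box proteins together, the Aux/IAA proteins are then degraded, and the ARFs are released. Many Aux/IAA genes are themselves induced by auxin, and in dark-grown seedlings auxin and ethylene act together in hook formation and root growth. H3 acetylation generally marks the first part of transcribed genes.

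The members fall into classes by their proteins. Of the Aux/IAA genes, 23 are canonical, with the degradation motif through which the auxin receptor is bound, and 6 are non-canonical (IAA20, IAA30, IAA31, IAA32, IAA33 and IAA34). DNA coding for the motif core, in which glycine, tryptophan and a pair of prolines follow each other, was found in 23 of 23 canonical members, in 0 of 6 non-canonical members, in 0 of 15 ARF genes and in 34 of 27444 genes overall. The windows of 30 bases below are shown because canonical members that code for the same motif core differed widely in acetylation. IAA4 and IAA13 carried summits in 6 and 8 of the 10 peak lists, and IAA5 and IAA29 in none. Capitals mark the 4 motif codons, on the gene's strand.
IAA4 (AT5G43700), chr5:17550740-17550769, + strand: cagattgttGGATGGCCACCAgttagatct
IAA13 (AT2G33310), chr2:14115233-14115262, - strand: caagttgttGGATGGCCTCCTatagggtca
IAA5 (AT1G15580), chr1:5366275-5366304, - strand: caagttgtgGGTTGGCCACCGgtttgttcg
IAA29 (AT4G32280), chr4:15583942-15583971, + strand: gaagttgttGGATGGCCACCAgtaaaaaca

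ARF proteins bind auxin response elements in DNA. The letters TGTCTC, read on both strands, stood in the 500 bp before the annotated start of 14 members (31.8%), against 21.3% of all genes. The letters TGTCGG stood there in 9 members (20.5%), against 7.68% of all genes, and at least 1 of these motifs, which share their first 4 letters, in 19 members (43.2%), against 27.4%. The windows below, with the matched letters in capitals, are shown for 3 pairs of related members: IAA20 and IAA30 and IAA12 and IAA13 were listed differently, and IAA6 and IAA19 much alike. The windows of IAA20 and IAA30 share 22 of 30 bases, those of IAA6 and IAA19 share 27, and those of IAA12 and IAA13 share 21.
IAA20 (AT2G46990), chr2:19307633-19307662, + strand: tttagcggacgcTGTCTCatcattccaccg
IAA30 (AT3G62100), chr3:22995618-22995647, + strand: ctttaacaacacTGTCTCatcattccacca
IAA6 (AT1G52830), chr1:19673814-19673843, - strand: ggacccaacataTGTCTCtcatgtgaccga
IAA19 (AT3G15540), chr3:5263805-5263834, + strand: gcaccaaacttaTGTCTCtcatgtgaccga
IAA12 (AT1G04550), chr1:1240244-1240273, + strand: caggtttgattaTGTCGGaagacaagtttt
IAA13 (AT2G33310), chr2:14116172-14116201, - strand: caagtttgataaTGTCGGgaagaaaagtta

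No peak in any of the 10 lists covered any of the 30 such windows found upstream of the 19 members. A match of letters is a description and not evidence of binding. Of the 217 peaks with their summit inside a member, 215 began at or after the annotated gene start, with a median of 298 bp between the start and the peak's near edge.

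The data are 10 peak lists, 1 for each mark, genotype and treatment, with 3011 to 18003 peaks each. Replicate libraries had been pooled before peaks were called, and H3K14Ac in Col-0 had a single library per treatment, so no replicate error exists for any value below and no test was made. All lists of a genotype and treatment share 1 IgG control library. The control held 4333059 tags for ein2-5 with ethylene, 13683768 for ein2-5 in air, 10479732 for Col-0 with ethylene and 2438541 for Col-0 in air. A deeper control lets weaker peaks pass, and over sequence at the genome-wide background the lowest fold enrichment able to pass the P threshold was 1.83, 1.5, 1.58 and 2.1 in the same order, with lower values possible where the local background is higher. Ethylene and control depth therefore cannot be told apart in the lists as deposited. For this reason the main counts are also given after all lists were brought to a common control depth of 2438541 tags, which leaves the Col-0 air lists as they are. This scaling can drop peaks but cannot add any, so the scaled lists are not the same as lists called anew at that depth. ACT2, ACT7 and UBQ10, which most cells express, carried summits in 7, 9 and 7 lists, and the seed storage genes CRA1 and CRU3 in 0 and 1. None of ACT2, ACT7 and UBQ10 had a summit of H3K14Ac in ein2-5 with ethylene. In Col-0 air only ACT7 had summits of H3K14Ac and H3K23Ac. An active gene can thus lack a summit in these lists. The summit on CRU3 was of H3K14Ac in ein2-5 air. Whether fewer cells carried a mark or each cell carried less of it cannot be told apart in whole seedlings.

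H3K9Ac was the most widespread mark on these genes. In Col-0 it placed a peak summit inside 35 of 44 members with ethylene and 27 in air (all genes: 56.1% with ethylene and 36.2% in air). The members' shares, 79.5% and 61.4%, were above those of all genes in both treatments. The 8 members listed with ethylene and not in air were IAA10, IAA12, IAA14, IAA20, IAA27, IAA28, ARF9 and ARF17, beside 20.1% of all genes. No member was listed in air alone, beside 0.142% of all genes. With all lists at the common control depth, 32 members remained with ethylene (all genes: 48.6%) and 6 were listed with ethylene and not in air (all genes: 13.8%). IAA6 was then the only member listed in air alone (all genes: 1.34%).

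The strongest H3K9Ac peaks on members belonged to Aux/IAA genes in ethylene-treated Col-0. IAA7 (AXR2, whose stabilised mutant form disturbs gravitropism) had a fold enrichment, the authors' ratio of pileup to local background, of 5.15. This stood at percentile 99.7 of its list. IAA4 reached 5.08 (percentile 99.6) and IAA9 5.00 (percentile 99.5). Over the 39 summits of this list inside members, the median fold enrichment was 3.41 and the median percentile 83.0, against a median fold enrichment of 2.61 over all peaks of the list. In air the 33 member summits had a median fold enrichment of 2.63, against 2.65 over all peaks. Fold enrichment is set beside other peaks of the same list only, since each list was scaled to its own control.

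**Figure D1:**
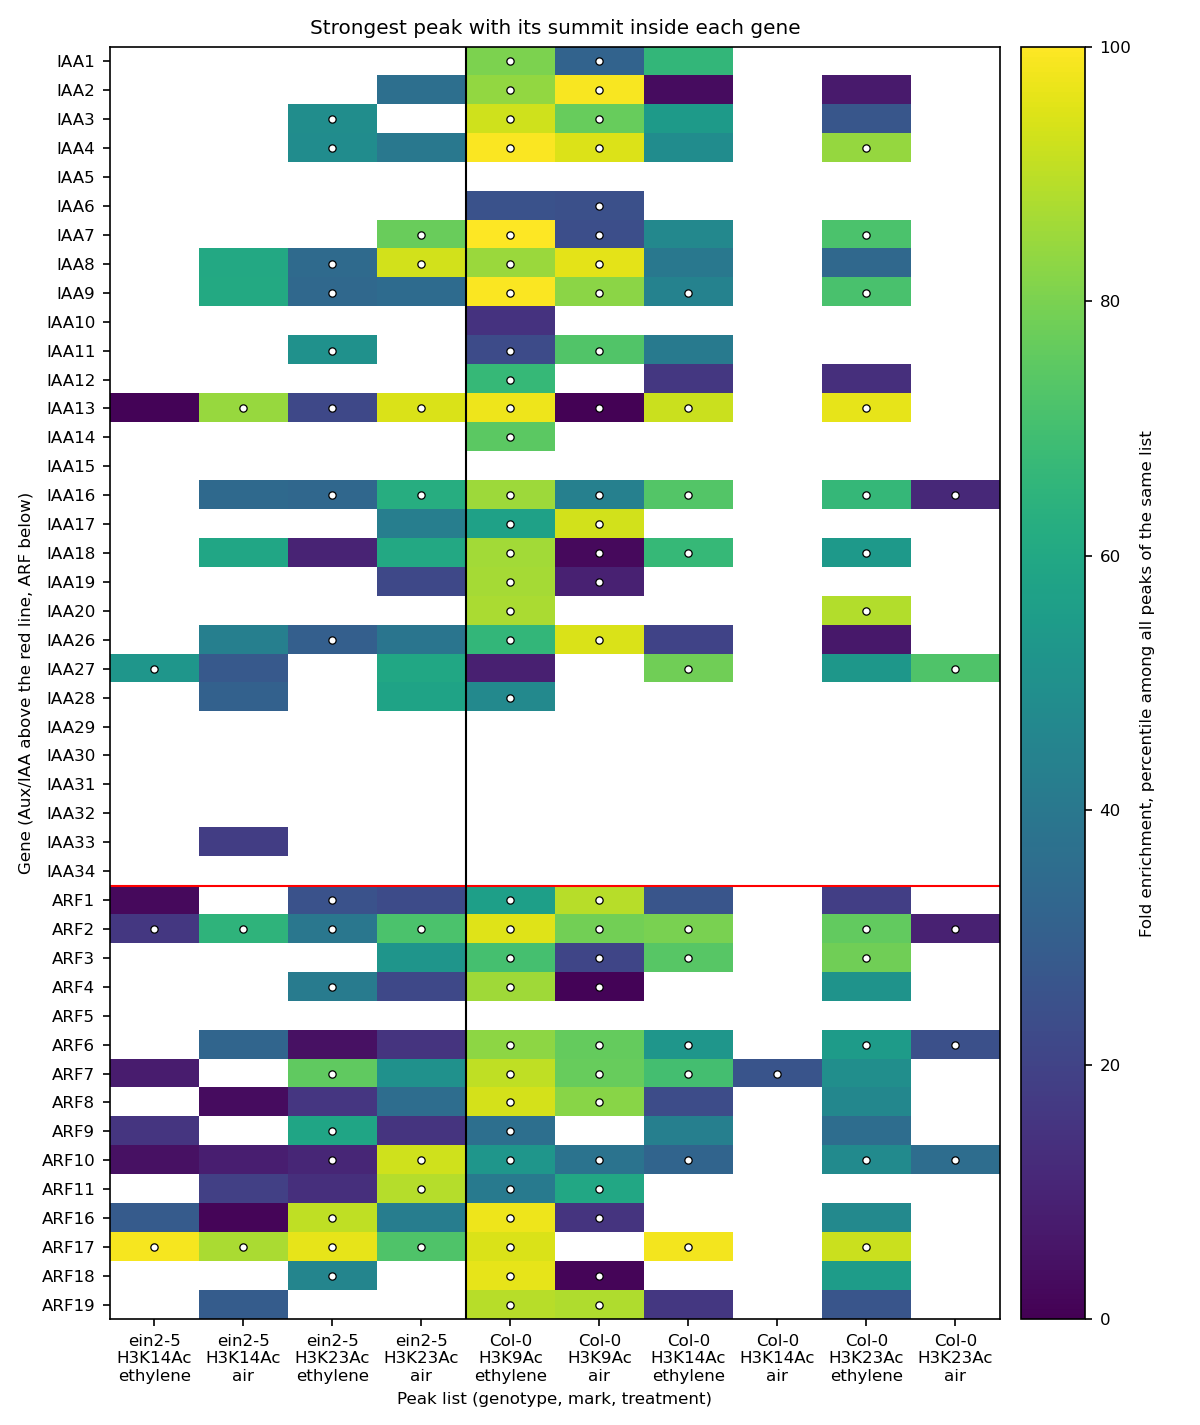
Each cell is the strongest peak with its summit inside a member, coloured by the percentile of its fold enrichment among all peaks of the same list; blank cells have no summit inside, and white dots mark cells with a summit that is kept at the common control depth. Columns are the 10 peak lists (ein2-5 left of Col-0, ethylene left of air) and rows the 44 genes. H3K14Ac in Col-0 air has 1 filled cell, ARF7, and 8 rows are blank throughout.

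H3K14Ac in Col-0 was listed on 24 members with ethylene and on 1 in air (all genes: 43.8% with ethylene and 10.6% in air). The member listed in air was ARF7 (NPH4, an activating ARF of phototropism and lateral root formation). The other 23 were listed with ethylene and not in air, which is 52.3% of members beside 33.7% of all genes, and no member was listed in air alone (all genes: 0.455%). They comprise 14 Aux/IAA genes and 9 ARF genes. At the common control depth 11 members kept an H3K14Ac summit with ethylene (all genes: 24%), and 10 of them had none in air (22.7% of members, beside 15.8% of all genes). These 10 were IAA9, IAA13, IAA16, IAA18, IAA27, ARF2, ARF3, ARF6, ARF10 and ARF17.

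H3K23Ac in Col-0 was listed on 26 members with ethylene and on 5 in air (all genes: 39.3% with ethylene and 17% in air). The 5 listed in air, IAA16, IAA27, ARF2, ARF6 and ARF10, were all listed with ethylene too. The other 21 were listed with ethylene and not in air, which is 47.7% of members beside 23.8% of all genes, and none was listed in air alone (all genes: 1.59%). On bringing the lists to the common control depth, 12 members kept a summit with ethylene (all genes: 20.3%). Of these, 8 had none in air (18.2% of members, beside 9.28% of all genes): IAA4, IAA7, IAA9, IAA13, IAA18, IAA20, ARF3 and ARF17. IAA27 was then the only member listed in air alone (all genes: 6.03%). Its ethylene peak (−log10 P 5.10 as deposited, against 4.03 in air) was dropped by the scaling, which leaves the Col-0 air list as it is. The H3K14Ac and H3K23Ac comparisons use the same pair of control libraries, so the members they have in common are not independent observations.

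**Figure D2:**
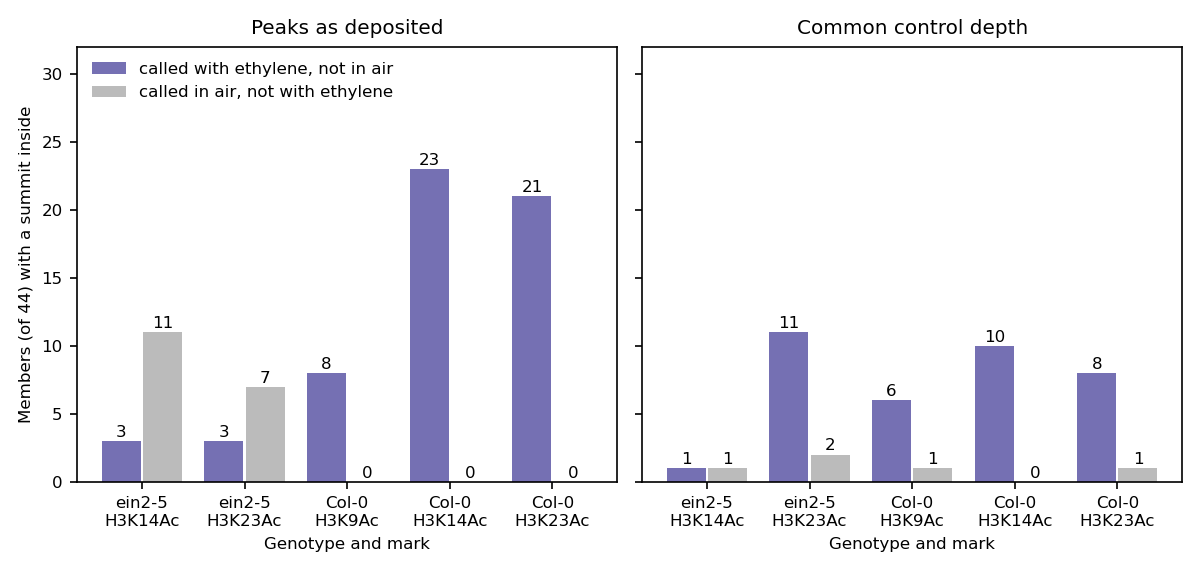
Bars count members (y axis, of 44) with a summit inside in 1 treatment and not in the other, by genotype and mark (x axis), for peaks as deposited (left) and at the common control depth (right). In Col-0 the H3K14Ac bars for ethylene and not air are 23 as deposited and 10 at the common depth, and the H3K23Ac bars 21 and 8; in ein2-5 the H3K23Ac bar is 3 as deposited and 11 at the common depth.

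IAA13, the closest relative of IAA12 (BODENLOS), both of which restrain ARF5 in the embryo, had the highest H3K14Ac and H3K23Ac values among the Aux/IAA genes in ethylene-treated Col-0. Its gene spans chr2:14113025-14116089 on the minus strand. In ethylene-treated Col-0 its H3K14Ac peak, chr2:14115147-14115862, had a fold enrichment of 2.67 (−log10 P 11.2, percentile 92.0), and its H3K23Ac peak, chr2:14115164-14115921, had 2.88 (−log10 P 14.1, percentile 96.4). Their summits lay 375 and 382 bp after the gene start, in coding sequence, and both peaks reach over the motif codons printed above. In Col-0 air neither mark was listed on IAA13, while H3K9Ac had a weak peak there (fold enrichment 1.67, percentile 0.4). In ein2-5 both marks were listed on IAA13 in both treatments. H3K14Ac had 1.59 with ethylene (percentile 1.0) and 2.19 in air (percentile 84.6), and H3K23Ac had 1.94 with ethylene (percentile 21.7) and 2.51 in air (percentile 94.2).

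IAA9 and IAA18 (CRANE), of which IAA18 acts in lateral root formation, were also listed for both marks. On IAA9 (chr5:26253408-26256544, plus strand) the H3K14Ac peak had a fold enrichment of 1.95 (chr5:26254300-26255339, −log10 P 6.21, percentile 44.3) and the H3K23Ac peak 2.22 (chr5:26253794-26254423, −log10 P 6.79, percentile 71.3). The summit of this H3K14Ac peak, the stronger on IAA9, lay 1410 bp into the gene, in coding sequence. The H3K23Ac summit lay 621 bp into it, in an intron. A weaker H3K14Ac peak (chr5:26253939-26254163, fold enrichment 1.80, −log10 P 3.73, percentile 25.8) had its summit 652 bp into the gene, in an intron. That weaker peak was not kept at the common depth. On IAA18 (chr1:19305081-19307518, plus strand) the values were 2.17 for H3K14Ac (chr1:19305549-19305903, −log10 P 7.21, percentile 66.9) and 2.03 for H3K23Ac (chr1:19305486-19305833, −log10 P 5.8, percentile 54.1), with summits 665 and 629 bp into the gene, in coding sequence. IAA16 and IAA27 were listed with ethylene and not in air for H3K14Ac alone, since H3K23Ac was listed on them in air too. IAA16 (chr3:1288155-1290891, minus strand) had an H3K14Ac peak of 2.25 (chr3:1289484-1289766, −log10 P 9.8, percentile 73.4), with its summit 1255 bp into the gene, in coding sequence. IAA27 (PAP2, a phytochrome-associated protein; chr4:14323296-14325361, minus strand) had one of 2.32 (chr4:14324774-14325110, −log10 P 7.66, percentile 78.5), 445 bp into the gene, in coding sequence. The H3K23Ac peak of IAA27 had a fold enrichment of 2.02 with ethylene (percentile 52.9) and 2.85 in Col-0 air (chr4:14324823-14325072, −log10 P 4.03, percentile 72.3), where it stood highest of the 5 members listed.

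IAA4, IAA7 and IAA20 were listed for H3K23Ac with ethylene and not in air at the common depth. IAA4 (ATAUX2-11, an early auxin-induced gene; chr5:17550179-17551715, plus strand) had a fold enrichment of 2.42 (chr5:17550449-17551581, −log10 P 8.89, percentile 84.0), with the summit 603 bp into the gene, in coding sequence. IAA7 (chr3:8194606-8197161, plus strand) had 2.22 (chr3:8194744-8195044, −log10 P 6.51, percentile 71.5), 275 bp into the gene, in coding sequence. IAA20 (chr2:19307714-19309071, plus strand), a non-canonical member that lacks the degradation motif, had 2.52 (chr2:19307908-19308232, −log10 P 8.95, percentile 88.3), 347 bp into the gene, in coding sequence. IAA20 carried a summit in 2 of the 10 lists, H3K23Ac and H3K9Ac of ethylene-treated Col-0, and its H3K9Ac peak had a fold enrichment of 3.59 (chr2:19307876-19308447, −log10 P 20.9, percentile 87.3). It had none in ein2-5 and none in Col-0 air. IAA30, with 22 of 30 upstream bases in common with IAA20, had none in any list.

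Among the ARF genes, ARF17 (chr1:29272074-29275507, plus strand), a class C ARF and target of the microRNA miR160 with roles in pollen wall formation and adventitious rooting, had the highest values of both marks with ethylene in either genotype. There its H3K14Ac fold enrichment was 3.33 in ein2-5 (chr1:29272341-29273243, −log10 P 9.54, percentile 98.8) and 3.09 in Col-0 (chr1:29272361-29273480, −log10 P 16.4, percentile 98.3). Its H3K23Ac fold enrichment with ethylene was 3.12 in ein2-5 (percentile 96.4) and 2.65 in Col-0 (chr1:29272388-29273230, −log10 P 11.6, percentile 92.1). The gene was listed for both marks in ein2-5 air as well, at 2.23 for H3K14Ac (percentile 87.2) and 2.06 for H3K23Ac (percentile 72.6). It was listed for no mark in Col-0 air, H3K9Ac included, and all of its ein2-5 peaks and ethylene peaks were kept at the common depth. Its strongest summits in these 7 lists lay between 460 and 506 bp from the gene start, in coding sequence.

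ARF3 (ETTIN, a class B ARF that patterns the gynoecium; chr2:14325206-14328978, minus strand) was the other ARF listed for both marks with ethylene and not in air at the common depth. Its H3K14Ac fold enrichment was 2.26 (chr2:14328361-14328593, −log10 P 6.72, percentile 73.9) and its H3K23Ac fold enrichment 2.31 (chr2:14328321-14328595, −log10 P 7.11, percentile 78.2), with summits 518 and 535 bp into the gene, in coding sequence. In ein2-5 it carried 1 summit, of H3K23Ac in air, which was not kept at the common depth. ARF2, ARF6 and ARF10 were listed for H3K14Ac with ethylene and not in air. ARF2 (chr5:24910191-24915395, plus strand), which restrains bending of the apical hook downstream of ethylene, had 2.35 (chr5:24910501-24911888, −log10 P 11.1, percentile 79.8), 916 bp into the gene, in coding sequence. ARF6 (chr1:10685822-10690988, minus strand), an activating ARF of hypocotyl elongation and flower maturation, had 2.02 (chr1:10690206-10690584, −log10 P 6.32, percentile 52.4), 518 bp into the gene, in the 5′ UTR. ARF10 (chr2:12113889-12116957, plus strand), another miR160 target, had 1.85 (chr2:12114589-12115176, −log10 P 6.5, percentile 32.4), 998 bp into the gene, in coding sequence. ARF2 and ARF10 were the members listed most often, in 9 of the 10 lists, and the list they lacked was H3K14Ac in Col-0 air.

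In ein2-5 the lists as deposited ran the other way. H3K14Ac was listed on 9 members with ethylene and 17 in air (all genes: 27% with ethylene and 29.6% in air), and H3K23Ac on 21 with ethylene and 25 in air (all genes: 35.4% with ethylene and 37.2% in air). For H3K14Ac, 3 members (ARF1, ARF7 and ARF9) were listed with ethylene alone, beside 8.03% of all genes, and 11 in air alone, beside 10.6%. For H3K23Ac, 3 members (IAA3, IAA11 and ARF18) were listed with ethylene alone, beside 7.89% of all genes, and 7 in air alone, beside 9.69%. The control of the ein2-5 air lists was the deepest of the 4. Brought to the common control depth, H3K14Ac was listed on 3 members with ethylene (all genes: 22.4%) and 3 in air (all genes: 7.99%). H3K23Ac was then listed on 17 members with ethylene (all genes: 30.4%) and 8 in air (all genes: 11.6%). Listed with ethylene and not in air were then 1 member for H3K14Ac (IAA27, beside 16.5% of all genes) and 11 for H3K23Ac (25.0% of members, beside 21% of all genes). With lists of equal length, ein2-5 had H3K14Ac on 1 member with ethylene and 3 in air (all genes: 10.8% and 10.6%). H3K23Ac was on 4 with ethylene and 7 in air (all genes: 10.7% and 10.6%). The order of the treatments on these genes in ein2-5 thus depends on how the lists are made comparable.

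Set against Col-0 with ethylene, H3K14Ac was listed in ein2-5 and not in Col-0 on 1 member, ARF16 (all genes: 3.23%), and in Col-0 and not in ein2-5 on 16 members (all genes: 20%), 12 of them Aux/IAA genes. In air it was listed in ein2-5 alone on 17 members (all genes: 20.8%) and in Col-0 alone on 1, ARF7 (all genes: 1.74%). H3K23Ac with ethylene was listed in ein2-5 alone on 2 members, IAA11 and ARF11 (all genes: 7.16%), and in Col-0 alone on 7 (all genes: 11.1%). In air it was listed in ein2-5 alone on 20 members (all genes: 22.5%) and in Col-0 alone on 0 (all genes: 2.29%). At the common depth H3K14Ac with ethylene was listed on 0 members in ein2-5 alone (all genes: 8.22%) and on 8 in Col-0 alone (all genes: 9.74%): IAA9, IAA13, IAA16, IAA18, ARF3, ARF6, ARF7 and ARF10. H3K23Ac with ethylene was then listed on 10 members in ein2-5 alone (all genes: 15.5%) and on 5 in Col-0 alone (all genes: 5.43%), the opposite order to that of the lists as deposited, for the members as for all genes. In air at the common depth, H3K14Ac was listed on 3 members in ein2-5 alone (all genes: 3.9%) and on 1 in Col-0 alone (all genes: 6.52%). H3K23Ac in air was then listed on 5 members in ein2-5 alone (all genes: 4.36%) and on 2 in Col-0 alone (all genes: 9.8%). For both marks in air, the order over all genes was thus opposite to that as deposited, while the order of the members was kept. Genotype in air runs with control depth, 13683768 tags in ein2-5 and 2438541 in Col-0.

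Of the 23 members listed for H3K14Ac in Col-0 with ethylene and not in air, 7 carried an H3K14Ac summit in ein2-5 with ethylene, 13 in ein2-5 in air and 8 in neither. As shares these are 30.4%, 56.5% and 34.8%, beside 45.7%, 47.9% and 37.0% of the 9240 genes listed in this way. Of the 21 such members for H3K23Ac, 15 carried an H3K23Ac summit in ein2-5 with ethylene, 16 in ein2-5 in air and 3 in neither. These are 71.4%, 76.2% and 14.3%, beside 64.3%, 67.0% and 19.2% of the 6545 such genes. At the common depth 6 of the 10 H3K14Ac members and 3 of the 8 H3K23Ac members carried no summit of that mark in ein2-5, beside 43.9% of 4348 and 29.2% of 2547 such genes. With so few members these shares are a description and no result about the members.

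H3K23Ac and H3K14Ac of the same genotype and treatment were called against the same control, though with different antibodies and ChIP libraries of different size. In ein2-5 with ethylene, 13 members had an H3K23Ac summit and no H3K14Ac summit (all genes: 10.5%), and 1, IAA27, the opposite (all genes: 2.12%). In ein2-5 in air these counts were 10 (all genes: 11.5%) and 2 (all genes: 3.94%). In Col-0 with ethylene they were 4 (all genes: 5.29%) and 2 (all genes: 9.81%), and in Col-0 in air 5 (all genes: 7.36%) and 1 (all genes: 0.929%). The 13 members of ein2-5 with ethylene comprised 8 Aux/IAA genes (IAA3, IAA4, IAA8, IAA9, IAA11, IAA16, IAA18 and IAA26) and 5 ARF genes (ARF4, ARF6, ARF8, ARF11 and ARF18). At the common depth the counts were 15 (all genes: 10.5%) and 1 (2.55%) in ein2-5 with ethylene, 5 (5.21%) and 0 (1.61%) in ein2-5 in air, and 3 (4.25%) and 2 (7.93%) in Col-0 with ethylene, with Col-0 in air as before. The ChIP libraries differed in size, with 36862180 tags for H3K14Ac and 30688135 for H3K23Ac in ein2-5 with ethylene. In ein2-5 in air the tags were 28257938 and 36052363. In Col-0 they were 22575558 and 37674460 with ethylene and 16981322 and 32215289 in air. There H3K14Ac came from 1 library per treatment and H3K23Ac from 2. The part of antibody and library size in these counts was not tested.

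A larger share of ARF genes than of Aux/IAA genes was listed in all 10 lists. As deposited, the share of ARF genes with a summit ran from 6.67% (H3K14Ac in Col-0 air) to 93.3% (H3K9Ac in Col-0 with ethylene), and that of Aux/IAA genes from 0.0% to 72.4% in the same lists. The widest gap was for H3K23Ac in ein2-5 with ethylene, 12 of 15 ARF genes and 9 of 29 Aux/IAA genes. ARF genes are longer, with a median of 4530 bp, against 1740 bp for Aux/IAA genes and 2078 bp for all genes. The part of gene length in these shares was not tested beyond a count near the start. With summits counted only in the first 1 kb, H3K9Ac in Col-0 was listed on 34 members with ethylene and 26 in air (all genes: 53.5% with ethylene and 34.5% in air). H3K23Ac in Col-0 with ethylene was listed there on 23 members (all genes: 36%), with 80.0% of ARF genes and 37.9% of Aux/IAA genes, against 86.7% and 44.8% over whole genes. H3K14Ac in ein2-5 with ethylene was listed there on 8 members (all genes: 24.9%), 6 ARF genes and 2 Aux/IAA genes. For H3K14Ac in Col-0 with ethylene the first 1 kb gave 53.3% of ARF genes and 41.4% of Aux/IAA genes (all genes: 37.7%). Over whole genes these were 66.7% and 48.3%. For H3K14Ac in ein2-5 in air it gave 33.3% and 24.1% (all genes: 25.7%), against 53.3% and 31.0% over whole genes. The gap between the families was thus smaller near the start for H3K14Ac in these lists, but not for H3K23Ac in Col-0 with ethylene.

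**Figure D3:**
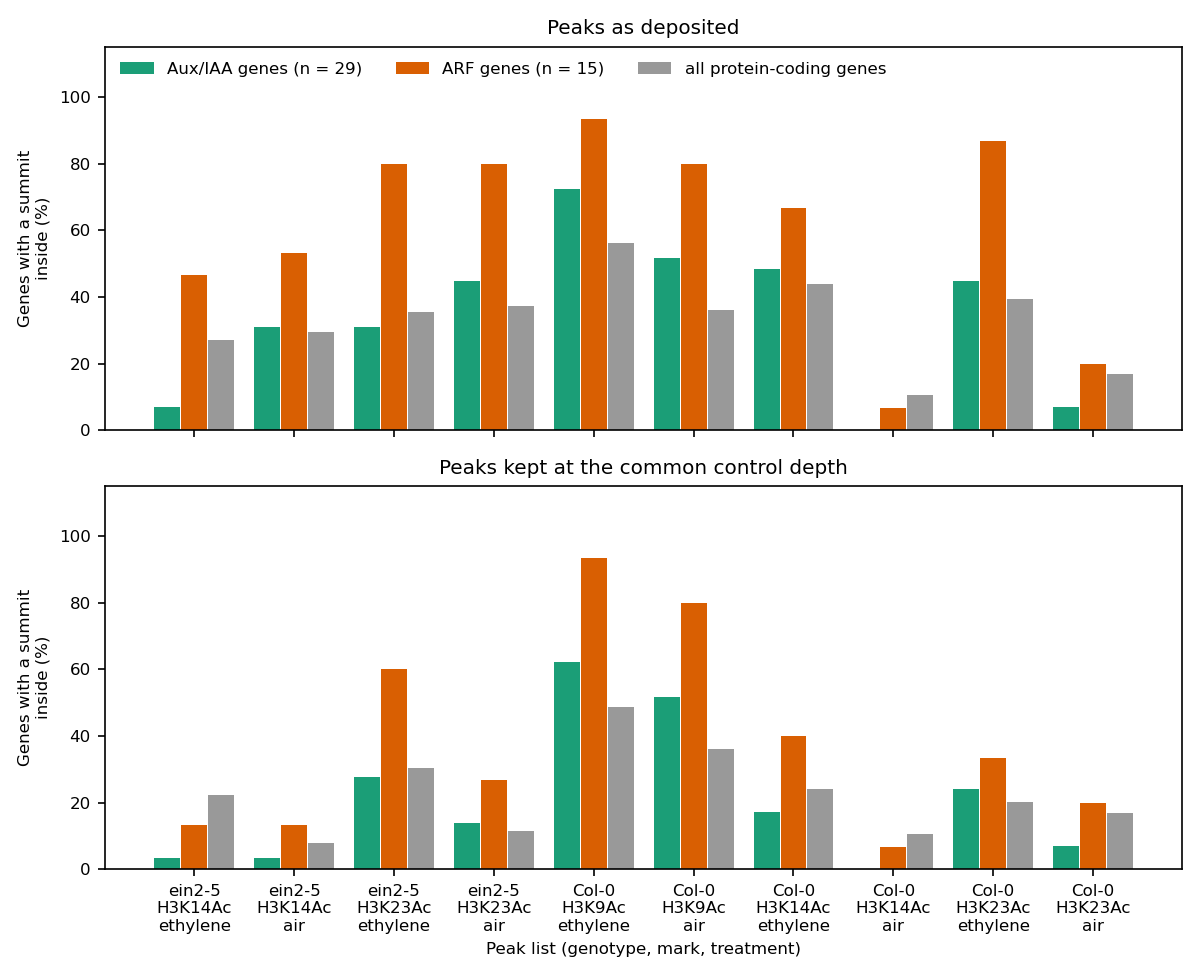
Bars give the percentage of Aux/IAA genes (29), ARF genes (15) and all 27444 protein-coding genes with a peak summit inside the gene (y axis), for each of the 10 lists (x axis), as deposited (top) and at the common control depth (bottom). The ARF bar is above the Aux/IAA bar in every list of both panels, and the Aux/IAA bar for H3K14Ac in Col-0 air is at 0.

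By protein class, all 7 class B ARF genes and all 3 class C ARF genes, both classes mostly of repressors, carried a summit in at least 1 list. So did 4 of 5 class A ARF genes, the activators, and 20 of 23 canonical Aux/IAA genes. Of the non-canonical Aux/IAA genes, 2 of 6 did, IAA20 and IAA33. No member carried a summit in all 10 lists, beside 6.24% of all genes. The 8 members with none in any list (18.2% of members, beside 35.9% of all genes) were IAA5, IAA15, IAA29, IAA30, IAA31, IAA32, IAA34 and ARF5 (MONOPTEROS, an activating ARF of embryo patterning). At the common depth IAA10 and IAA33 joined them (22.7% of members, beside 46.1% of all genes). The median length of the 8 genes was 1299 bp.

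Few members were listed once or in a pair of lists. IAA14 (SOLITARY-ROOT, a repressor of lateral root formation; chr4:8347822-8350263, minus strand) carried 1 summit, of H3K9Ac in Col-0 with ethylene, with a fold enrichment of 3.16 (chr4:8348418-8350005, −log10 P 13.4, percentile 74.7), 541 bp into the gene, in coding sequence. IAA10 (chr1:1059470-1061209, plus strand) carried 1 in the same list, with 1.93 (chr1:1059546-1059849, −log10 P 5.33, percentile 14.8), 208 bp into the gene, in the 5′ UTR. IAA33 (chr5:23269914-23271092, plus strand), a non-canonical member, carried 1 of H3K14Ac in ein2-5 air, with 1.65 (chr5:23269995-23270250, −log10 P 3.45, percentile 18.3), 245 bp into the gene, in coding sequence. IAA6 (SHY1, a repressor acting in hypocotyl growth in light; chr1:19672476-19673652, minus strand) carried H3K9Ac summits in Col-0, with 2.12 with ethylene (chr1:19672652-19673549, −log10 P 5.79, percentile 25.0) and 2.25 in air (chr1:19673203-19673507, −log10 P 2.5, percentile 24.3), 371 and 342 bp into the gene, in coding sequence. Its relative IAA19 (MSG2), with 27 of 30 upstream bases in common, carried 3 summits, of H3K9Ac in both treatments of Col-0 and of H3K23Ac in ein2-5 air. Of the remaining members, 29 carried summits in 3 to 8 lists.

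Inside the genes, summits lay mainly in coding sequence. Of the 217 summits, 119 lay in coding sequence, 53 in introns, 41 in the 5′ UTR, 1 in the 3′ UTR and 3 in gene sequence outside the transcript used. The same split was not counted over all genes. For H3K9Ac with ethylene the median distance of member summits from the annotated start was 497 bp, against 362 bp over all genes, and for H3K23Ac with ethylene in Col-0 470 bp, against 404 bp. H3K14Ac in Col-0 with ethylene lay furthest in, at a median of 851 bp or 38.2% of the gene's length over 34 member summits, against 492 bp or 23.4% over all genes. Its member summits reached up to 4425 bp from the start, and the 6 summits furthest from a start all belonged to ARF genes (ARF1, ARF2, ARF7 and ARF19). The longest Aux/IAA gene has 3137 bp and the longest ARF gene 5735 bp, so positions beyond 3137 bp exist in ARF genes only. Where a member carried both marks in ethylene-treated Col-0, the strongest H3K14Ac and H3K23Ac summits were a median of 50.5 bp apart, and within 200 bp of each other in 17 of 22 members. H3K9Ac and H3K23Ac summits were a median of 28.5 bp apart, within 200 bp in 23 of 26 members. Distances between marks were not measured over all genes.

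**Figure D4:**
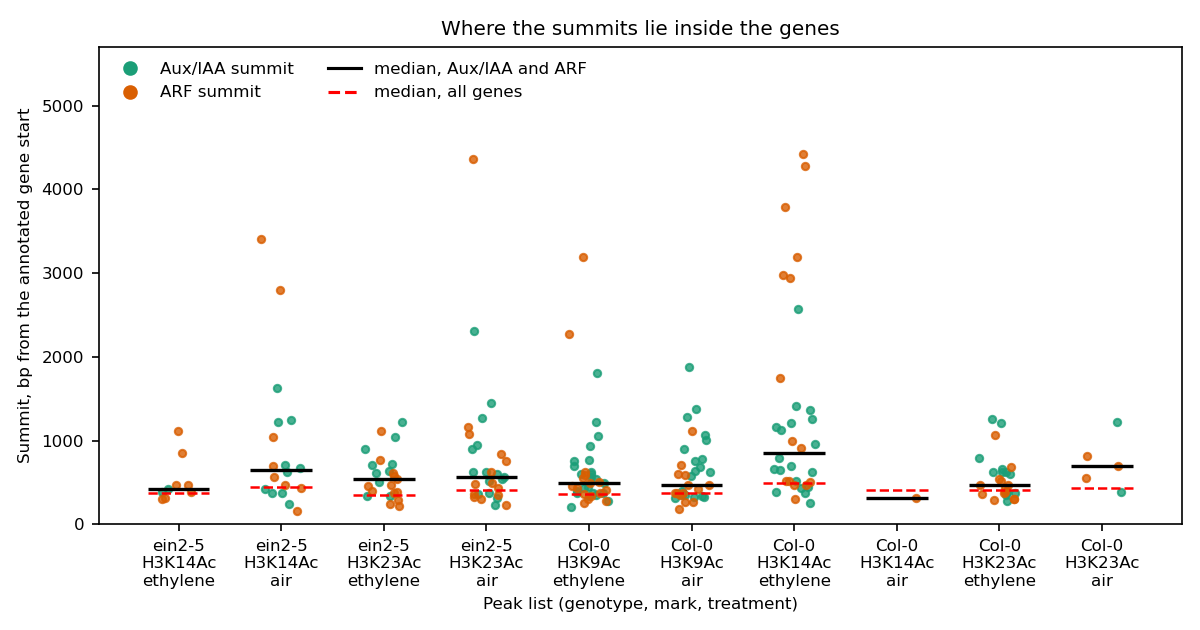
Points are peak summits inside Aux/IAA genes (green) and ARF genes (orange), by their distance in bp from the annotated gene start (y axis), in each of the 10 lists (x axis); solid lines are medians over member summits and dashed lines medians over all genes' summits. H3K14Ac in Col-0 with ethylene has the highest member median, 851 bp, and single ARF summits up to 4425 bp.

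Widening the search to 2 kb on either side added mostly peaks of neighbouring genes. Of 392 pairs of a member and a peak, 175 had the summit outside the member, and in 151 of these the summit lay in another protein-coding gene. A peak lay within 2 kb in ein2-5 of 16 members for H3K14Ac with ethylene (all genes: 46.8%), 26 in air (51.2%), 31 for H3K23Ac with ethylene (57.8%) and 35 in air (60.9%). In Col-0 the counts were 40 for H3K9Ac with ethylene (77.3%), 33 in air (57.9%), 30 for H3K14Ac with ethylene (67.3%), 6 in air (20.9%), 33 for H3K23Ac with ethylene (62.5%) and 12 in air (31.5%). Members that neighbour each other, IAA1 and IAA14 (10732 bp apart), IAA2 and IAA7 (12510 bp) and IAA3 and IAA17 (6388 bp), had no peak in common. The lists had median peak lengths of 280 to 552 bp, so at these distances a shared peak was hardly possible. Reads that could be split between related members were not examined.

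Other genes of the pathway were listed in part. All 6 auxin receptor genes (TIR1 and AFB1 to AFB5) carried H3K14Ac and H3K23Ac summits in Col-0 with ethylene, against 0 for H3K14Ac and 3 for H3K23Ac in Col-0 air. As deposited, the shares of all genes in Col-0 were 43.8% and 10.6% for H3K14Ac and 39.3% and 17% for H3K23Ac. Treatment runs with control depth here too. Brought to the common depth, H3K14Ac in Col-0 was on 5 with ethylene and 0 in air (all genes: 24% and 10.6%). H3K23Ac was then on 3 with ethylene and 3 in air (all genes: 20.3% and 17%). In ein2-5, 5 carried H3K14Ac with ethylene and 2 in air (all genes: 27% and 29.6%). H3K23Ac was on 6 with ethylene and 4 in air (all genes: 35.4% and 37.2%). These receptor counts ran opposite to the shares of all genes. At the common depth they were 3 and 0 for H3K14Ac (all genes: 22.4% and 7.99%) and 6 and 2 for H3K23Ac (all genes: 30.4% and 11.6%). Of the 5 TOPLESS family co-repressor genes, 2 carried H3K14Ac in Col-0 with ethylene and 0 in air (all genes: 43.8% and 10.6%). H3K23Ac in Col-0 was on 3 and 0 of them (all genes: 39.3% and 17%) and H3K9Ac on 5 and 4 (all genes: 56.1% and 36.2%). The co-repressor genes were not counted at the common depth. CUL1, the cullin of the receptor's ubiquitin ligase, carried a summit in all 10 lists, beside 6.24% of all genes. Of the 6 GH3 genes, whose enzymes conjugate auxin to amino acids, GH3.5 was listed 5 times, GH3.6 3 times and the other 4 never. Of the target genes LBD16 and LBD29, LBD16 was listed 5 times and LBD29 never. The 7 ARF genes that the choice of members leaves out (ARF12 to ARF15 and ARF20 to ARF22) carried no summit in any list. Over all genes, 35.9% carried none in any list.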

How the data were processed

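ChIP-seq was done on 18 ChIP libraries (antibodies against H3K9Ac, H3K14Ac and H3K23Ac) and 4 IgG libraries. The authors aligned reads with Bowtie2 (2.1.0) and called peaks with MACS2 (2.1.0.20150603) on pooled replicates, taking as control the IgG library that matched in genotype and treatment, with a P threshold of 0.01, as given in the paper's methods, the submitters' processing notes and the file headers. The 10 deposited lists give, per the file headers, a pileup (a coverage signal at the summit, scaled to the control), −log10 P, and the fold enrichment, a ratio of pileup to local background. They also hold a −log10 q column, although the headers state that q was not computed, so what it holds is uncertain and it served in 1 alternative only. Every unit was checked against the values. The members and gene lists were chosen with earlier results of these data known.

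A member counted as listed where a summit lay inside its gene span, and the same count was made over 27444 protein-coding genes of the RefSeq annotation of TAIR10.1, whose chromosomes 1 to 5 are those of TAIR10. Sequences were read from that genome, with no table of protein sequences used here. Coordinates are 1-based. For the common control depth, the summit's pileup and local background were multiplied to what 2438541 control tags would give, and a peak was kept if its Poisson P then did not exceed 0.01. Peak coordinates and values were given for members listed for H3K14Ac or H3K23Ac in Col-0 with ethylene and not in air at the common depth, for members in all lists (none), and for members in 1 or 2 lists. Where a gene held several summits, the peak with the highest fold enrichment was printed. Percentiles are ranks of fold enrichment within a list. With 1 list per condition, no error or test exists. Counting of peaks and summits was tested on simulated data, with 0 mismatches. Alternatives were lists of equal length (3011 peaks), a fold enrichment of 2 or more, a q under 0.05, any overlap of 1 bp, windows of 1 kb and 0 kb, peaks with no summit in another gene, and, added after seeing the data, the first 1 kb of each gene. Tables were handled with pandas 2.3.3 and numpy 2.4.6 in Python 3.11.15, P values came from scipy 1.17.1, coding sequences were translated with biopython 1.88 and plots drawn with matplotlib 3.10.9.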

Additional observations from a re-analysis of the deposited data

Results flagged for a closer look

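The difference between ethylene and air in the number of members with an H3K14Ac summit had opposite signs in the genotypes: -8 members in ein2-5 and 23 in Col-0. For H3K23Ac it was -4 members in ein2-5 and 21 in Col-0. The shares of all genes had the same signs. With ethylene and in air they were 27% and 29.6% for H3K14Ac in ein2-5 and 43.8% and 10.6% in Col-0. For H3K23Ac they were 35.4% and 37.2% in ein2-5 and 39.3% and 17% in Col-0. With 1 list per condition these differences were not tested. The control was shallower with ethylene than in air in ein2-5 (4333059 tags with ethylene, 13683768 in air) and deeper with ethylene in Col-0 (10479732 tags with ethylene, 2438541 in air), so the signs run with control depth as well as with treatment. At the common control depth the opposite signs were not seen. In ein2-5 H3K14Ac was then on 3 members with ethylene and 3 in air (all genes: 22.4% and 7.99%). H3K23Ac was on 17 with ethylene and 8 in air (all genes: 30.4% and 11.6%). Nor were opposite signs seen for a fold enrichment of at least 2. In ein2-5 H3K14Ac was then on 2 members with ethylene and 2 in air (all genes: 19.5% and 10.2%), and H3K23Ac on 14 and 7 (26.4% and 13.9%). In Col-0 H3K14Ac was on 11 and 1 (25.5% and 9.59%) and H3K23Ac on 14 and 3 (21.3% and 15.0%). With lists of equal length the members again had opposite signs, where each list covered 10.6% to 10.9% of all genes. In ein2-5 there was 1 member with ethylene and 3 in air for H3K14Ac, and 4 and 7 for H3K23Ac. In Col-0 there were 4 with ethylene and 1 in air for H3K14Ac, and 6 and 2 for H3K23Ac. Opposite signs were also seen for a q under 0.05, for the members as for all genes. In ein2-5 H3K14Ac was on 2 and 15 members (all genes: 20.3% and 27.3%) and H3K23Ac on 17 and 25 (30.4% and 35.5%). In Col-0 H3K14Ac was on 24 and 0 (42.3% and 4.6%) and H3K23Ac on 26 and 2 (37.6% and 10.5%).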

How the results depend on the processing

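No paired analysis was possible because replicate libraries were pooled before peaks were called. With 1 list per condition, control depth limits every comparison. Any overlap of 1 bp and a window of 1 kb moved no count by over 1.5 times. At the common control depth 23 of 40 counts moved by more, with lists of equal length 23 of 30, with a fold enrichment of at least 2 19 of 30, with a q under 0.05 9 of 30 and with the first 1 kb 5 of 30; the window of 0 kb moved 4 of 10 and peaks with no summit in another gene 3 of 10. The cause was not tested.

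Percentages in brackets, here and below, are shares of all genes under the same setting. Members with a summit inside became, for a q under 0.05 (from a column whose content is uncertain), 2 (ein2-5 H3K14Ac ethylene, 20.3%), 0 (Col-0 H3K14Ac air, 4.6%) and 2 (Col-0 H3K23Ac air, 10.5%). For a fold enrichment of at least 2 they became 2 (ein2-5 H3K14Ac ethylene, 19.5%), 2 (ein2-5 H3K14Ac air, 10.2%) and 7 (ein2-5 H3K23Ac air, 13.9%). In Col-0 they became 11 (H3K14Ac ethylene, 25.5%), 14 (H3K23Ac ethylene, 21.3%) and 3 (H3K23Ac air, 15.0%). At the common control depth they became 3 and 3 (ein2-5 H3K14Ac ethylene and air, 22.4% and 7.99%) and 8 (ein2-5 H3K23Ac air, 11.6%). In Col-0 they were then 11 (H3K14Ac ethylene, 24.0%) and 12 (H3K23Ac ethylene, 20.3%). With lists of equal length they became 1 and 3 (ein2-5 H3K14Ac ethylene and air), 4 and 7 (ein2-5 H3K23Ac), 16 and 14 (Col-0 H3K9Ac), 4 (Col-0 H3K14Ac ethylene), and 6 and 2 (Col-0 H3K23Ac ethylene and air), and 20 members had no summit in any list. Each list of equal length covered 10.6% to 10.9% of all genes, and 68.1% of all genes had no summit in any, so most counts fell with the list, while the H3K9Ac counts stayed above those shares.

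Members listed with ethylene and not in air became, for a q under 0.05, 16 (Col-0 H3K9Ac, 25.9%) and 0 (ein2-5 H3K14Ac, 6.16%). For a fold enrichment of at least 2 they became 1 (ein2-5 H3K14Ac, 13.6%), 11 (ein2-5 H3K23Ac, 17.4%), 10 (Col-0 H3K14Ac, 18.6%) and 12 (Col-0 H3K23Ac, 12.3%). At the common depth they became 1 (ein2-5 H3K14Ac), 11 (ein2-5 H3K23Ac), 10 (Col-0 H3K14Ac) and 8 (Col-0 H3K23Ac), and with equal length 0 (ein2-5 H3K14Ac), 4 (Col-0 H3K14Ac) and 6 (Col-0 H3K23Ac). Members listed in air and not with ethylene became 11 (ein2-5 H3K23Ac, 12.3%) for a q under 0.05. For a fold enrichment of at least 2 they became 1 (ein2-5 H3K14Ac, 4.26%), 4 (ein2-5 H3K23Ac, 4.9%) and 1 (Col-0 H3K23Ac, 5.91%). At the common depth they became 1 (ein2-5 H3K14Ac, 2.01%), 2 (ein2-5 H3K23Ac, 2.16%), 1 (Col-0 H3K9Ac, 1.34%) and 1 (Col-0 H3K23Ac, 6.03%). With equal length they became 2 (ein2-5 H3K14Ac, 5.68%), 4 (Col-0 H3K9Ac, 5.18%), 1 (Col-0 H3K14Ac, 5.53%) and 2 (Col-0 H3K23Ac, 5.7%). With the first 1 kb they became 1 each (Col-0 H3K9Ac, 0.619%, and H3K23Ac, 1.71%).

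Members listed in ein2-5 and not in Col-0 became, for a q under 0.05, 0 (H3K14Ac ethylene, 2.5%) and 1 (H3K23Ac ethylene, 6.51%). For a fold enrichment of at least 2 they became 0 and 2 (H3K14Ac ethylene and air, 7.83% and 6.31%) and 7 and 6 (H3K23Ac ethylene and air, 13.7% and 7.39%). At the common depth they became 0 and 3 (H3K14Ac, 8.22% and 3.9%) and 10 and 5 (H3K23Ac, 15.5% and 4.36%). With equal length they became 0 and 3 (H3K14Ac, 6.17% and 5.63%) and 6 (H3K23Ac air, 5.95%). With the first 1 kb they became 2 (H3K14Ac ethylene, 3.84%) and 4 (H3K23Ac ethylene, 7.48%). Members listed in Col-0 and not in ein2-5 became 0 (H3K14Ac air, 0.609%) for a q under 0.05. For a fold enrichment of at least 2 they became 9 (H3K14Ac ethylene, 13.9%) and 2 (H3K23Ac air, 8.46%). At the common depth they became 8 (H3K14Ac ethylene, 9.74%) and 2 (H3K23Ac air, 9.8%). With equal length they became 3 (H3K14Ac ethylene, 6.18%), 4 (H3K23Ac ethylene, 6.22%) and 1 (H3K23Ac air, 5.98%), and with the first 1 kb 1 (H3K23Ac air, 2.4%).

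Members with a peak within 2 kb became, with a window of 0 kb, 9 and 17 (ein2-5 H3K14Ac ethylene and air, 27.2% and 29.8%). In Col-0 air they became 1 (H3K14Ac, 10.6%) and 5 (H3K23Ac, 17.1%). With peaks whose summit lay in no other gene they became 9 (ein2-5 H3K14Ac ethylene), 1 (Col-0 H3K14Ac air) and 6 (Col-0 H3K23Ac air). The share of all genes was not counted for this alternative. At the common depth the members became 8 (ein2-5 H3K14Ac air, 16.3%), 14 (ein2-5 H3K23Ac air, 23.1%), 18 (Col-0 H3K14Ac ethylene, 43.0%) and 18 (Col-0 H3K23Ac ethylene, 37.4%).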
